A study of Gasterosteus aculeatus with 79 samples.

Results

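In the diencephalon of male stickleback, 99 genes were lower at every stage of paternal care than in control males of the same hour. Lower here means a lower group mean of log2 normalised read counts, not a lower count in every male. These 99 genes were chosen by their measured values in diencephalon. CPM is a gene's count scaled to a common total over all gene counts of its library, and 14278 of the 22456 genes in the tables had a mean of at least 5 CPM in diencephalon. For each, the stage mean minus the control mean of log2(CPM + 1) was taken at 5 stages, and the 100 genes whose largest difference was lowest were kept, of which 1 is not reported here. The libraries were made from diencephalon and telencephalon of 40 wild-caught males in 8 groups of 5. Nest males had a nest and had not mated, eggs males were caring for eggs 4 days after fertilization, and early, mid and late hatching males were taken on day 5 as their fry hatched. The hour was 9am for nest, eggs and early hatching, 1pm for mid hatching and 5pm for late hatching. Control males were in reproductive condition without a nest, in a group for each of the 3 hours. The males of the 5 stages are called experimental males here, as nest males had no offspring yet. The diencephalon has 39 libraries, with 4 in the 1pm control group, and the telencephalon 40.

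The diencephalon holds the hypothalamus and thalamus, and through the pituitary it governs hormones of reproduction and stress. The telencephalon of fish holds the counterparts of the amygdala and hippocampus. In stickleback the father alone cares for the offspring: he builds the nest, fans the eggs and guards the fry. In pieces of whole tissue, fewer cells of a type and less RNA per cell cannot be told apart.

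Most of the genes are known here only by their Ensembl identifier. A symbol was found for 5 of the 99 (xpr1, cpne3, snx5, cd99l2 and sall3a) and none for 94, so a role can be given for few. A further 3, ENSGACG00000020195, ENSGACG00000015831 and ENSGACG00000015779, appear without a symbol in the study's list of transcription factors and their targets. Of 27 lists of marker and pathway genes, 1 held a member, sall3a in the list of transcription factor genes. Only 681 identifiers had a symbol, and some lists, such as those of telencephalon, neuron and circadian clock genes, matched 0 identifiers. The lists therefore cannot show which kinds of genes the set lacks. In the marker lists for the 2 regions a single gene was matched, pomca, the precursor of ACTH in hypothalamus and pituitary. Its median in diencephalon was 57.9 CPM in experimental and 76.9 CPM in control males, and in telencephalon 0.837 CPM and 2.01 CPM. It did not separate the regions library by library: it was below 10 CPM in 14 of the 39 diencephalon libraries, the lowest at 1.67 CPM, and reached 624, 2084 and 4752 CPM in 3 telencephalon libraries, against at most 45.6 CPM in the other 37. As a gene of the pituitary too, pomca alone cannot judge the tissue labels. The paper reports a clean split of its samples by region on an MDS plot.

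Gene counts summed to between 16025932 and 37371744 per diencephalon library and between 15839679 and 29785260 per telencephalon library, and 0 pairs of libraries were identical. In telencephalon, the same 3 libraries, all of control males, had 5107, 7108 and 13888 CPM over 6 pituitary genes, against at most 386 CPM in the other 37. Another 4, of 3 control males and 1 eggs male, had 169, 190, 647 and 838 CPM over 21 photoreceptor and pineal genes. The other 36 had at most 84.8 CPM. In diencephalon the pituitary genes had 0.331 to 2373 CPM in experimental and 1.15 to 3761 CPM in control libraries (medians 400 and 272 CPM). The photoreceptor and pineal genes had 9.93 to 754 CPM in experimental and 9.04 to 160 CPM in control libraries there. Their part in the diencephalon differences was not tested. All control libraries and those of 1 late hatching male were sequenced on multiple lanes and the other experimental libraries on a single lane, so lane and group cannot be told apart.

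In diencephalon the level of the set, the mean log2(CPM + 1) over the 99 genes, was 4.49 ± 0.18 in nest males, 4.47 ± 0.29 in eggs males and 4.60 ± 0.12 at early hatching, against 4.99 ± 0.15 in 9am control males (SD, n = 5 each). It was 4.65 ± 0.11 at mid hatching (SD, n = 5), against 5.04 ± 0.16 in 1pm control males (n = 4), and 4.51 ± 0.16 at late hatching, against 5.11 ± 0.13 in 5pm control males (SD, n = 5 each). Experimental libraries lay between 4.08 and 4.78 and control libraries between 4.73 and 5.26, and 3 experimental libraries were above the lowest control library. This separation is what the choice asked for and carries no test.

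By gene, the median difference in diencephalon was -0.43 at nest, -0.48 at eggs, -0.32 at early hatching, -0.36 at mid hatching and -0.59 at late hatching. Over all 14278 genes the medians lay between -0.03 and 0.01. The lowest of the 5 differences fell at late hatching for 50 of the 99 genes, and at eggs for 21. The highest fell at early hatching for 50 and at mid hatching for 27. The shares of all genes were not taken, so no stage is read from these counts. Over all 14278 genes the quartiles of the difference were -0.19 and 0.17 at late hatching, and -0.09 and 0.09 at early hatching.

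**Figure D1:**
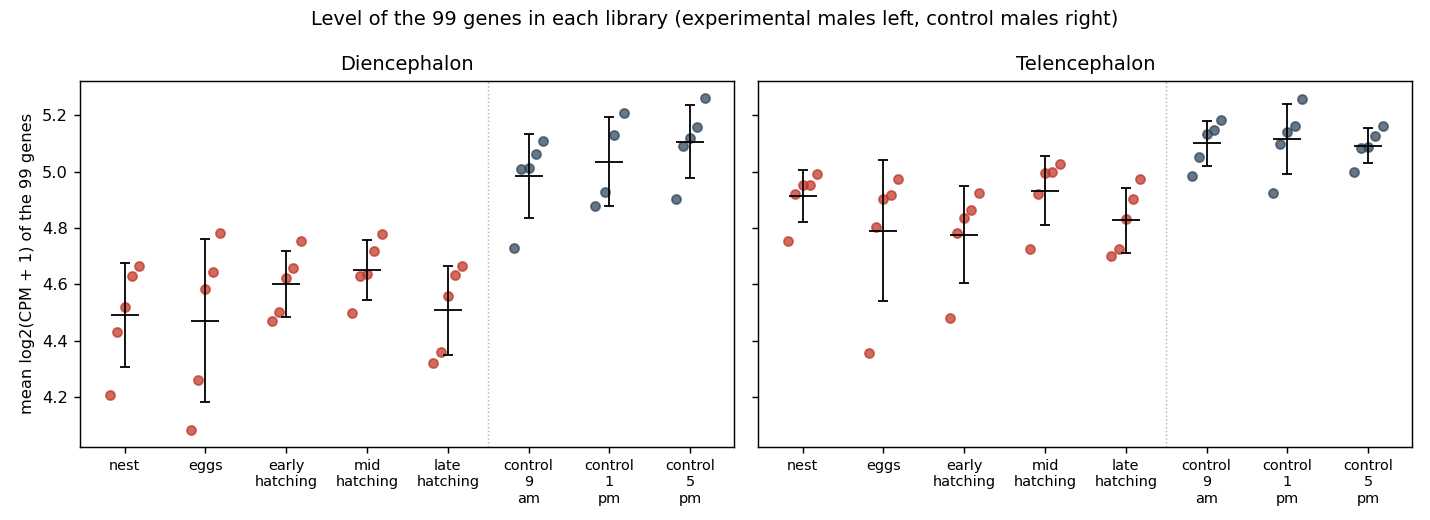
Mean log2(CPM + 1) of the 99 genes (vertical axis) in each library by group, in diencephalon and telencephalon; each point is 1 male, and the group mean ± SD is shown for experimental (red) and control males (dark). In telencephalon experimental libraries lay between 4.36 and 5.03 and control libraries between 4.92 and 5.26.

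The late hatching male on multiple lanes had a level of 4.63 in diencephalon. The other 4 late hatching males had 4.32, 4.36, 4.56 and 4.66, against 4.90 to 5.26 in 5pm control males. In telencephalon it had 4.83, with 4.70 to 4.97 in the other late hatching males, against 5.00 to 5.16 in control males. Its level was within the range of the other late hatching males in both regions. The lane records say only that its libraries and those of the control males were run on multiple lanes, not which, and the part of the lanes was not tested. This male was below the control mean for 95 of the 99 genes in diencephalon and for 76 in telencephalon. The share over all genes was not taken, and the diencephalon values helped choose the genes, so nothing is read from these counts.

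ENSGACG00000015787 had the lowest largest difference of the set, -0.59, and very uneven levels in diencephalon. It had 0.0466, 0.102, 1.15, 11.1 and 18.7 CPM in nest males, against 3.68, 7.02, 8.90, 23.9 and 26.2 CPM in 9am control males. The groups overlapped, with 3 nest males below all control males. At eggs it had 0.888, 1.23, 7.72, 9.10 and 66.8 CPM, which also overlapped with those control males. At late hatching it had 0, 0.110, 8.86, 13.5 and 19.1 CPM, against 0, 1.04, 8.20, 20.6 and 119 CPM in 5pm control males, which overlapped throughout. Its median over all males was 8.86 CPM in experimental and 8.55 CPM in control diencephalon.

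ENSGACG00000017912 was more even. Its diencephalon CPM was 5.01, 5.83, 6.02, 7.73 and 8.53 in nest males, against 11.2, 11.8, 12.6, 12.9 and 16.9 in 9am control males, with no overlap. At late hatching it had 4.09 to 10.8 CPM, against 7.63 to 12.3 CPM in 5pm control males, where 1 late hatching male lay among the controls. Its 5 differences ran from -0.997 at eggs to -0.57 at mid and late hatching.

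The most abundant gene of the set, ENSGACG00000011397, averaged 1043 CPM in diencephalon. At late hatching it had 739 ± 237 CPM, against 1676 ± 376 CPM in 5pm control males (SD, n = 5 each). In nest males it had 786 ± 171 CPM, against 1183 ± 276 CPM in 9am control males (SD, n = 5 each). Its differences ran from -1.21 at late hatching to -0.42 at early hatching, whereas in telencephalon, where it averaged 1622 CPM, they ran from -0.14 to 0.24.

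ENSGACG00000002143 had its lowest difference at early hatching, -1.46, with 4.27, 6.87, 9.18, 12.0 and 16.1 CPM, against 5.07, 6.95, 59.7, 64.5 and 74.9 CPM in 9am control males. The control males were split into 2 low and 3 high. ENSGACG00000014696 had 17.1 ± 1.9 CPM in nest males, against 31.4 ± 14.9 CPM in 9am control males (SD, n = 5 each). The other genes among the first 10 were ENSGACG00000005145, ENSGACG00000000758, ENSGACG00000009791, ENSGACG00000008745 and ENSGACG00000016626, with largest differences between -0.45 and -0.40.

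The 5 genes with a symbol stood between positions 18 and 94. xpr1 (ENSGACG00000010782, groupVIII:13518062-13531647, minus strand, Ensembl release 75), whose human counterpart exports phosphate from cells, had 19.3, 25.2, 25.7, 27.5 and 34.3 CPM in diencephalon at late hatching, against 27.8, 43.5, 47.7, 52.1 and 71.8 CPM in 5pm control males. The groups overlapped at 1 control male. Its differences ran from -0.82 at late hatching to -0.35 at mid hatching.

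cpne3 (ENSGACG00000001836), annotated as 1 of many copies of a copine, a protein that binds membrane lipids with calcium, had 33.7 ± 4.87 CPM in diencephalon of nest males, against 47.6 ± 4.75 CPM in 9am control males (SD, n = 5 each). Reads shared by such copies can be lost, so its level is uncertain. cd99l2 (ENSGACG00000000749, scaffold_47:260723-266338, plus strand), a cell surface protein related to CD99, had 8.01, 9.43, 11.3, 15.3 and 16.3 CPM at late hatching, against 14.7, 18.6, 19.1, 19.5 and 20.1 CPM in 5pm control males. Only the 2 highest late hatching males reached the lowest control male.

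sall3a (ENSGACG00000005503), a zinc finger transcription factor of the spalt family, had 54.4 ± 13.9 CPM in diencephalon of nest males, against 91.6 ± 19.9 CPM in 9am control males (SD, n = 5 each). Its differences were -0.75 at nest and -0.24 at both mid and late hatching. snx5 (ENSGACG00000004673, groupVI:5842529-5847391, plus strand), a sorting nexin of endosomes, had the mildest mean difference of the 99 genes, -0.28.

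The set has no clear edge. ENSGACG00000017910, ENSGACG00000019828 and ENSGACG00000014606, the last genes inside it, had largest differences of -0.231, -0.230 and -0.229. ENSGACG00000014075, ENSGACG00000003866 and ENSGACG00000015284, just outside, had -0.229, -0.228 and -0.228. The median level of the 99 genes in diencephalon was 19.9 CPM, against 31.1 CPM over the 14278 genes, and their median SD of log2(CPM + 1) within groups was 0.33, against 0.19.

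Whether these genes were also lower in the telencephalon was asked in libraries that had no part in choosing them. Each stage was set against control males of its hour, and the mean of the 5 stages was tested as 1 contrast, by edgeR's quasi-likelihood test over 18397 genes, with p adjusted over all of them by Benjamini-Hochberg and called under 0.01. All 99 genes were tested. The telencephalon libraries come from the same males as the diencephalon libraries, and nest, eggs and early hatching share their control males, so these comparisons are independent neither of those males nor of one another.

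In the mean of the 5 stages, 2 of the 99 genes were lower in telencephalon of experimental males, ENSGACG00000015779 and ENSGACG00000006984, and 0 were higher. Of all genes tested, 0.364% were lower and 0.245% higher. DESeq2 called 3 of the 99 lower, and 0.745% of all genes. At an unadjusted p under 0.05, 46 of the 99 were lower and 0 higher, where 9.74% of all genes were lower and 8.74% higher. The median log2 fold change was -0.21 over the 99 genes and -0.01 over all genes. It was below 0 for 94 of the 99, where 9605 of all 18397 genes were below 0. The level of the set in telencephalon was 4.91 ± 0.09 in nest males, 4.79 ± 0.25 in eggs males and 4.78 ± 0.17 at early hatching, against 5.10 ± 0.08 in 9am control males (SD, n = 5 each).

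On the log2(CPM + 1) scale, the telencephalon difference averaged over the 5 stages was below 0 for 96 of the 99 genes, with a median of -0.21 and quartiles of -0.30 and -0.13. Over the 13682 genes with a mean of at least 5 CPM in both regions the median was 0.00 and the quartiles -0.08 and 0.07. Of these, 51.0% were below 0. All 5 differences were below 0 for 54 of the 99 genes, where 10.3% of the 13682 were. The median in diencephalon, whose values chose the genes, was -0.45.

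**Figure D2:**
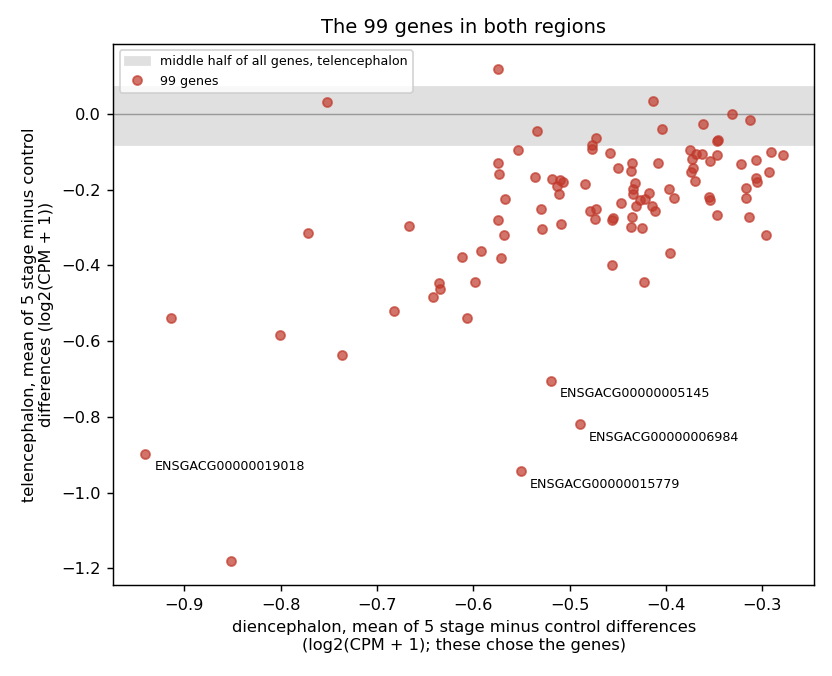
Stage minus control difference of log2(CPM + 1), averaged over 5 stages, of each of the 99 genes in diencephalon (horizontal axis, the values that chose the genes) and telencephalon (vertical axis). The grey band spans the quartiles of all genes in telencephalon, -0.08 to 0.07. Of the 99 points 96 lie below 0, where 51.0% of all 13682 genes do.

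At the single stages, edgeR's quasi-likelihood test called 0 of the 99 genes in telencephalon at an adjusted p under 0.01, in either direction. Of all genes it called 0.00544% lower at eggs, 0.0109% higher at nest and 0% in the other cases. At an unadjusted p under 0.05, 6 of the 99 were lower at nest, 20 at eggs, 21 at early hatching, 5 at mid hatching and 30 at late hatching. The shares of all genes lower were 7.82% at nest, 5.64% at eggs, 5.54% at early hatching, 3.14% at mid hatching and 7.16% at late hatching. In the other direction there were 0 of the 99 at every stage in this fit, and at most 2 in the alternatives, where in this fit 6.62% of all genes were higher at nest, 5.76% at eggs, 5.56% at early hatching, 2.43% at mid hatching and 6.85% at late hatching. DESeq2 called 0 of the 99 lower at nest, 1 at eggs, 1 at early hatching and 0 at mid and late hatching, where it called 0.169%, 0.0978%, 0.136%, 0.0761% and 0.0489% of all genes lower, in the same order.

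Several of the counts at an unadjusted p under 0.05 turned on single libraries. At eggs, 7 of the 99 were lower without eggs male 5 (3.62% of all genes) and 13 without 9am control male 2 (4%). At early hatching, 10 were lower without early hatching male 1 (4.06%). At mid hatching, 2 were lower without mid hatching male 2 and 10 without 1pm control male 5 (2.80% and 3.03%). Without the 3 libraries of high pituitary markers, which include those 2 control males, the count was 7 at eggs (4.40%) and 10 at mid hatching (3.02%), and without the 4 of high photoreceptor markers it was 12 at eggs (5.57%) and 13 at early hatching (3.78%). At late hatching it was between 21 and 39 without single libraries. The share of all genes lower at late hatching was 7.16% with all libraries and is not given for those fits.

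Male by male, 16 of the 99 genes had lower CPM in telencephalon of all 5 late hatching males than in all 5 control males of the hour, where 5.14% of the 13682 genes did. The same held for 3 genes at nest (2.15%), 2 at eggs (0.548%), 1 at early hatching (0.387%) and 0 at mid hatching (0.175%). Late hatching gave the lowest telencephalon difference for 45 of the 99 genes. The share of all genes lowest there was not taken, so no stage is read from this count. Over the 13682 genes the quartiles of the difference were -0.12 and 0.14 at late hatching. They were -0.14 and 0.11 at nest and -0.08 and 0.09 at mid hatching.

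The hour itself was compared in the control males, 5pm minus 9am. In telencephalon edgeR called 0 of the 99 genes, where 0.00544% of all genes were lower and 0% higher, and DESeq2 also called 0, where 0.103% of all genes were lower. At an unadjusted p under 0.05, 4 of the 99 were lower and 1 higher, where 7.45% of all genes were lower and 3.42% higher. These counts depended on the fit. With the 2 control groups alone, 6 of the 99 were lower and 25 higher. Of all 18397 genes, 1473 were lower and 1217 (6.62%) higher in that fit. With the share of reads that fell outside genes as a covariate, 13 of the 99 were lower (8.49%) and 0 higher (3.72%). No direction with the hour is read from them.

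ENSGACG00000015779, from the study's list of transcription factors and their targets, gave the lowest p of the set in telencephalon. It had 23.4, 24.98, 27.1, 34.1 and 40.4 CPM in nest males, 11.5, 14.7, 25.6, 33.8 and 34.6 CPM in eggs males and 15.7, 19.7, 26.4, 36.5 and 42.4 CPM at early hatching, against 44.1, 48.5, 65.7, 66.9 and 70.7 CPM in 9am control males. All 15 males of these stages lay below all 5 control males. At mid hatching it had 27.7, 32.7, 33.9, 37.7 and 47.1 CPM, against 33.9, 41.4, 51.7, 52.6 and 55.5 CPM in 1pm control males, which overlapped. At late hatching it had 21.0, 25.7, 29.8, 32.7 and 35.2 CPM, against 46.2, 50.0, 53.5, 56.7 and 65.4 CPM in 5pm control males, with no overlap.

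The log2 fold change of ENSGACG00000015779 in the mean of the 5 stages was -0.93 ± 0.13 (SE; edgeR adjusted p = 0.000476). By stage it was -0.97 at nest, -1.31 at eggs, -1.08 at early hatching, -0.41 at mid hatching and -0.90 at late hatching, with edgeR adjusted p between 0.0306 at eggs and 0.917 at mid hatching. It passed 0.01 in 40 of 40 fits that each left out 1 library. With the pituitary and photoreceptor marker levels as covariates the fold change was -0.88 and no longer passed (edgeR adjusted p = 0.0575). Without the 4 libraries of high photoreceptor markers it was -1.07 and without the 3 of high pituitary markers -0.85, and it passed in both (edgeR adjusted p = 0.000229 and 0.00296).

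In diencephalon ENSGACG00000015779 had 26.7 to 66.8 CPM in eggs males, against 72.0 to 93.3 CPM in 9am control males, without overlap. At early hatching it had 44.0 to 91.8 CPM, which overlapped with those controls. Its mean difference over the stages was -0.55 in diencephalon and -0.94 in telencephalon, and the gap between them was not tested. Its levels in diencephalon and telencephalon were 74.5 and 38.4 CPM on average (log2 fold change 0.97 ± 0.09, SE).

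**Figure D3:**
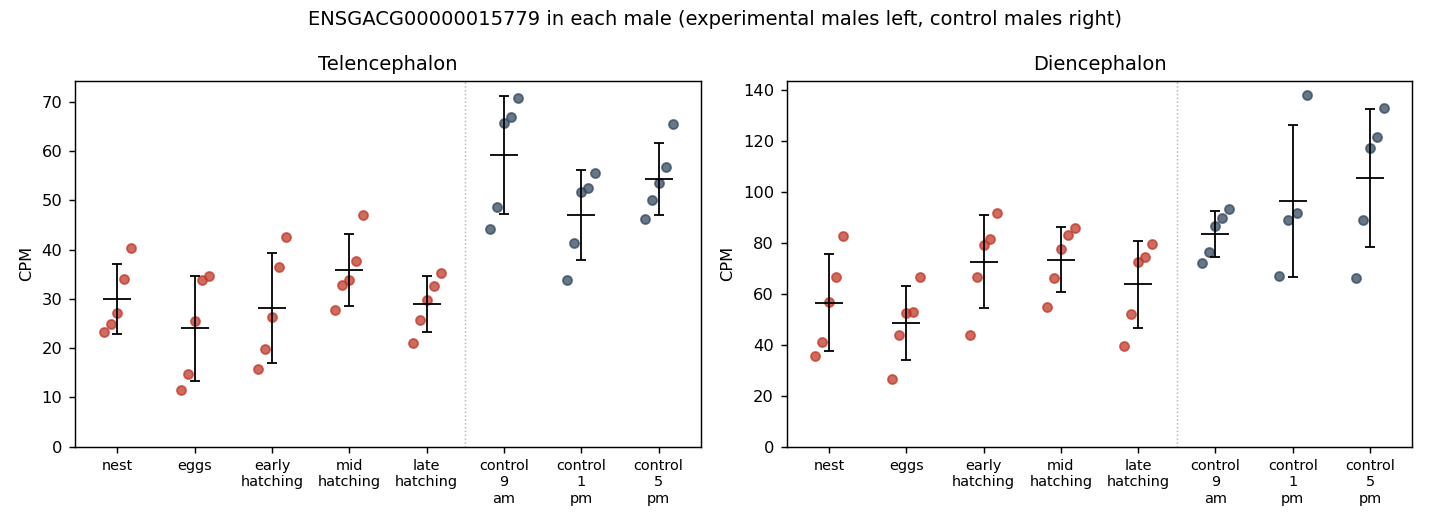
CPM of ENSGACG00000015779 (vertical axis) in each male by group in both regions, with the group mean ± SD, for experimental and control males. In telencephalon late hatching males had 21.0 to 35.2 CPM and 5pm control males 46.2 to 65.4 CPM.

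ENSGACG00000006984, the other gene called, was scarce in telencephalon. It had 0, 0.0508, 0.104, 0.227 and 0.501 CPM in nest males and 0.167, 0.323, 0.325, 1.34 and 5.87 CPM in eggs males, against 0.220, 0.321, 0.515, 4.43 and 18.03 CPM in 9am control males. Early hatching males had 0 to 0.280 CPM. Mid hatching males had 0 to 0.306 CPM, against 0.0564, 0.158, 0.204, 0.241 and 14.5 CPM in 1pm control males. Late hatching males had 0.0872 to 0.624 CPM, against 0 to 0.938 CPM in 5pm control males. The groups overlapped at every stage, and the 4 highest values were those of 3 control males and 1 eggs male. The log2 fold change was -3.17 ± 0.69 (SE; edgeR adjusted p = 0.00975).

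The 4 telencephalon libraries with the highest CPM of ENSGACG00000006984, 4.43 to 18.03 CPM, were the same 4 that had 169 CPM or more of photoreceptor and pineal markers, and it had at most 1.34 CPM in the other 36. Without those 4, an alternative chosen after seeing the data, its log2 fold change was -0.43 (edgeR adjusted p = 0.794). With the marker levels as covariates it was 0.03 (edgeR adjusted p = 0.991). It passed 0.01 in 10 of 40 fits without 1 library. The fold change was -2.10 without the 9am control male of 18.03 CPM (edgeR adjusted p = 0.121), and the edgeR adjusted p was highest, 0.183, without the 5pm control male of 0.938 CPM.

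**Figure D4:**
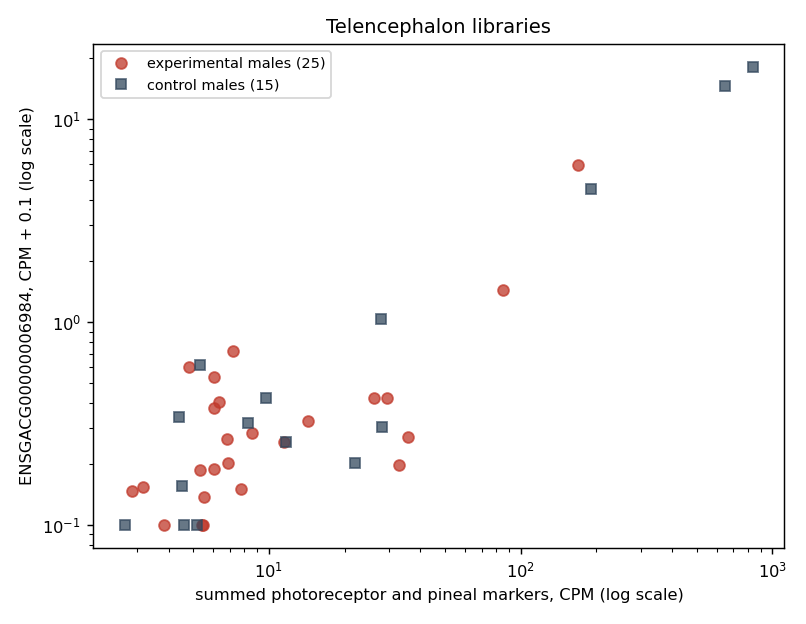
CPM + 0.1 of ENSGACG00000006984 (vertical axis, log scale) against the summed CPM of 21 photoreceptor and pineal markers (horizontal axis, log scale) in the 40 telencephalon libraries, with experimental males as red circles and control males as dark squares. The 4 libraries with 169 CPM or more of the markers have the 4 highest values of the gene.

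At an adjusted p under 0.05, 7 of the 99 genes were lower in the mean of the 5 stages, where 1.67% of all genes were. Beyond the 2 above these were ENSGACG00000017156 (log2 fold change -0.28, edgeR adjusted p = 0.0191), ENSGACG00000016626 (-0.44, 0.0405), ENSGACG00000011152 (-0.42, 0.0418), ENSGACG00000020301 (-0.47, 0.0437) and ENSGACG00000007908 (-0.29, 0.0446). ENSGACG00000016626 had 15.2, 17.9, 26.3, 29.2 and 32.6 CPM in telencephalon at late hatching, against 36.5, 38.1, 40.3, 41.2 and 43.8 CPM in 5pm control males, with no overlap. ENSGACG00000011152 had 13.5, 21.4, 25.9, 26.6 and 32.4 CPM, against 39.1, 39.9, 41.3, 45.5 and 49.4 CPM, again with no overlap. At nest, both genes had males within the range of the 9am control males.

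The next 3 by p were ENSGACG00000011017 (-0.53, edgeR adjusted p = 0.0559), ENSGACG00000005145 (-0.66, 0.0586) and ENSGACG00000017912 (-0.66, 0.0685). ENSGACG00000005145 had 6.08, 6.68, 8.84, 9.14 and 10.9 CPM in telencephalon of nest males, against 11.9, 13.6, 15.6, 17.4 and 18.8 CPM in 9am control males. The nest males lay below all control males, while eggs males, with 3.76 to 14.3 CPM, and early hatching males, with 4.48 to 15.9 CPM, overlapped with them.

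Of the genes with a symbol, none passed in telencephalon. xpr1 (ENSGACG00000010782) had a log2 fold change of -0.27 ± 0.09 over the 5 stages (SE; edgeR adjusted p = 0.0838). At late hatching it had 53.7, 62.1, 66.9, 70.4 and 90.8 CPM, against 95.2, 96.6, 96.9, 103 and 107 CPM in 5pm control males, which did not overlap (-0.52 ± 0.16, SE; edgeR adjusted p = 0.175). cpne3 had -0.20, snx5 -0.12, cd99l2 -0.19 and sall3a -0.27, with edgeR adjusted p of 0.155, 0.699, 0.316 and 0.399.

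Some genes of the set varied widely between males and alike in both regions. For each gene, the deviations of 39 males from their group means were compared between the regions, which share the animal. The median correlation was 0.46 over the 99 genes and 0.40 over the 13682 genes, and 12 of the 99 were above 0.8, where 5.58% of the 13682 were. These correlations are a description.

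ENSGACG00000011017 had the highest of them, 0.97. It had 24.4, 29.0, 31.2, 34.7 and 57.2 CPM in diencephalon at late hatching, against 40.2, 65.9, 86.4, 98.9 and 102 CPM in 5pm control males. In telencephalon it had 31.4, 39.6, 41.5, 49.1 and 72.3 CPM, against 42.3, 64.5, 98.0, 104 and 104 CPM. The highest late hatching male in diencephalon, and the 2 highest in telencephalon, lay above the lowest control male.

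ENSGACG00000019018, singled out after its values were seen, had the lowest mean difference of the set in diencephalon, -0.94, and a correlation of 0.91. It had 13.3, 13.5, 14.5, 17.9 and 84.4 CPM in diencephalon at early hatching, against 43.5, 46.0, 47.4, 53.6 and 54.3 CPM in 9am control males. In telencephalon it had 8.29, 12.5, 13.9, 16.5 and 81.7 CPM, against 36.2, 40.6, 41.5, 42.7 and 46.2 CPM. In each region 4 early hatching males lay below all control males and 1 above them all. Its log2 fold change in telencephalon over the 5 stages was -0.70 ± 0.26 (SE; edgeR adjusted p = 0.129).

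**Figure D5:**
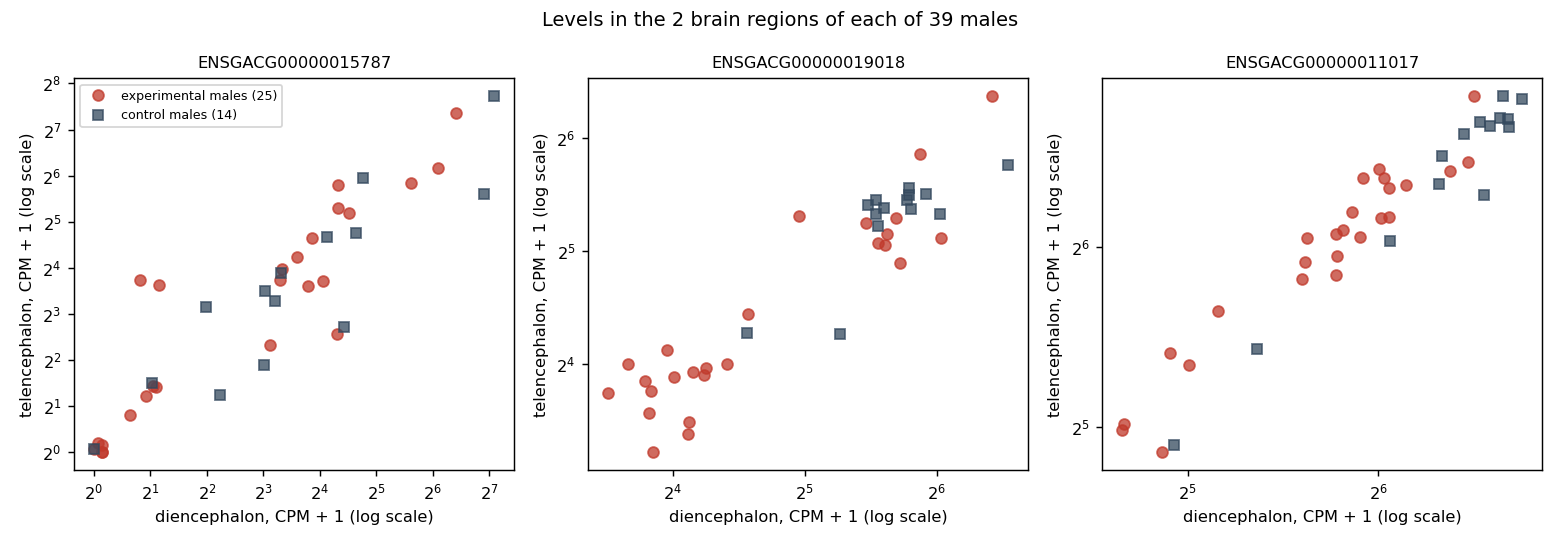
CPM + 1 of ENSGACG00000015787, ENSGACG00000019018 and ENSGACG00000011017 in diencephalon (horizontal axis, log scale) and telencephalon (vertical axis, log scale) of each of 39 males, experimental and control. The correlations of deviations within groups were 0.91, 0.91 and 0.97.

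The set was also compared between regions, in 1 edgeR fit over the mean of the 8 groups. That fit took the 79 libraries as separate samples, although 39 males gave both regions. The SEs of region differences given here come from it. Of the 99 genes 53 were lower and 17 higher in diencephalon than in telencephalon, where 28.5% of 18958 genes were lower and 30.0% higher. Among the 14278 genes from which the set was drawn, 32.5% were lower and 31.2% higher. The rule used the diencephalon values of experimental and control males, so these counts are a description, and nothing about the set is read from them. In control groups alone the median difference, diencephalon minus telencephalon, was -0.09 on the log2(CPM + 1) scale, against 0.01 over all genes, and in experimental groups -0.35, against 0.02.

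ENSGACG00000006984 had the largest difference between regions, with 18.3 CPM in diencephalon and 1.28 CPM in telencephalon on average (log2 fold change 5.16 ± 0.34, SE). ENSGACG00000000108 had 21.4 and 108 CPM (-2.40 ± 0.11, SE). ENSGACG00000010365 had 10.3 and 30.9 CPM (-1.63), ENSGACG00000005402 had 35.6 and 101 CPM (-1.55), and xpr1 had 32.2 and 77.8 CPM (-1.32). These 4 were all lower in diencephalon.

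The share of reads outside genes is their count over that count plus all gene counts. Other reads that were not counted in a gene are left out of it. In diencephalon it was higher where the set was lower. It was 49.8% ± 1.7 in nest males, 49.7% ± 2.5 in eggs males and 49.0% ± 1.1 at early hatching, against 47.8% ± 2.1 in 9am control males, and 49.4% ± 1.5 at late hatching, against 44.5% ± 0.99 in 5pm control males (SD, n = 5 each). Within groups, its correlation with the level in diencephalon was below 0 for 94 of the 99 genes and 52.1% of the 13682 genes. The medians were -0.40 and -0.02. In telencephalon it was below 0 for 83 of the 99 and 44.6% of the 13682, with medians of -0.24 and 0.04. The mean share there was 47.0% in nest males, 47.3% in eggs males and 47.0% at early hatching, against 47.2% in 9am control males. It was 46.0% at mid hatching, against 45.4% in 1pm control males. At late hatching it was 46.7% ± 1.6, against 45.0% ± 1.2 in 5pm control males (SD, n = 5 each). With the share as a covariate, 22 of the 99 genes were lower at late hatching and 2 higher at an unadjusted p under 0.05. Without it 30 were lower and 0 higher. Of all 18397 genes, 1230 were lower and 1635 higher with the covariate, against 1317 and 1260 without it. With the share as a covariate in telencephalon, ENSGACG00000015779 passed (-0.90, edgeR adjusted p = 0.000476), while ENSGACG00000006984 kept a fold change of -3.16 and just missed 0.01 (edgeR adjusted p = 0.0118). Its part in the diencephalon differences was not tested.

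Of other cell types, 5 oligodendrocyte markers together had 495 to 827 CPM in experimental and 553 to 1069 CPM in control diencephalon. The 8 microglia and leukocyte markers had 129 to 1278 CPM in experimental and 140 to 1336 CPM in control diencephalon. Pooled over the hours, the 2 groups overlapped in both lists. By hour, the oligodendrocyte markers had 609 ± 76 CPM at late hatching, against 796 ± 179 CPM in 5pm control males (SD, n = 5 each). At mid hatching they had 657 CPM, against 756 CPM in 1pm control males. At 9am they had 640, 632 and 701 CPM at nest, eggs and early hatching, against 626 CPM in control males. The microglia and leukocyte markers had 333.9 ± 158.6 CPM at nest, 394.6 ± 238.3 CPM at eggs and 385.7 ± 190.5 CPM at early hatching. In 9am control males they had 581.3 ± 182.8 CPM (SD, n = 5 each), and males of each stage overlapped with these. At mid hatching they had 624.8 CPM, against 580.02 CPM in 1pm control males. At late hatching they had 490.7 CPM, against 444.35 CPM in 5pm control males. The part of these cells in the levels of the 99 genes was not tested.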

How the data were processed

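The authors deposited whole-number counts per gene for each of the 79 libraries. They aligned reads with TopHat2 2.0.8 to the repeat-masked stickleback genome of Ensembl release 75 and counted them with HTSeq 0.6.1, leaving out reads that fell in several genes. Groups came from the sample labels, and lanes, symbols and positions from tables that accompany the study. The members and all lists were chosen with earlier results of these data known. The 5 lines of each table that name no gene (48.4% to 57.0% of reads) were kept out of library sizes and tests. A minimum of 0.5 CPM in 5 libraries was required, and TMM scaling and edgeR 4.0.16 (R 4.3.3; quasi-likelihood, all groups of a region in 1 fit, Benjamini-Hochberg adjustment) were used, with DESeq2 1.42.0 as an alternative. Diencephalon contrasts were not tested, since they chose the set. Genes named were the 10 with the lowest largest difference, those with a symbol or on a list, the 10 with the lowest p in telencephalon, 3 on each side of the limit of the set and 5 with the largest region difference; any other was chosen after its values were seen. Male numbers in the labels pair the regions of an animal. Fits were tested on simulated data.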

Additional observations from a re-analysis of the deposited data

Results flagged for a closer look

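Of 160 groups of males examined for 1 value far from the rest, 26 held one. The values were CPM of a few picked members, the level of the set and the share of reads outside genes. ENSGACG00000019018 was picked after its values were seen, and the same males enter in both regions. The count is therefore not set against a chance rate. A few genes made up most of the 26. ENSGACG00000006984 had a single high male in diencephalon at eggs (53.3 CPM) and among 9am control males (50.9 CPM), and in telencephalon at eggs (5.87 CPM) and among control males of 9am (18.03 CPM), 1pm (14.5 CPM) and 5pm (0.938 CPM). ENSGACG00000015787 had one in diencephalon at eggs (66.8 CPM) and among control males of 1pm (134.7 CPM) and 5pm (119.4 CPM), and in telencephalon at nest (17.97 CPM), at eggs (70.3 CPM) and among control males of 1pm (210.2 CPM) and 5pm (47.3 CPM).

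ENSGACG00000019018 had one in diencephalon at early (84.4 CPM) and late hatching (50.65 CPM) and among 5pm control males (92.1 CPM), and in telencephalon at early (81.7 CPM) and late hatching (38.2 CPM). Single high males were also seen in diencephalon for ENSGACG00000005145 (29.2 CPM) and ENSGACG00000017912 (10.8 CPM) at late hatching, xpr1 (ENSGACG00000010782) at mid hatching (40.9 CPM) and ENSGACG00000000108 among 1pm control males (65.8 CPM), and in telencephalon for ENSGACG00000017912 among 5pm control males (22.2 CPM).

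For the share of reads outside genes, 1 control male of 1pm had 48.0% in diencephalon. For the level of the set, 1 control male of 9am was low in diencephalon (4.73) and 1 eggs male was low in telencephalon (4.36).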

How the results depend on the processing

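Of the 99 genes, the choice kept 97 with TMM library sizes, 95 with log2(CPM + 0.1), 81 at a mean of at least 1 CPM, 82 at 10 CPM, and 71 to 97 without single libraries. In telencephalon, 2 genes were called in the mean of the 5 stages, where 67 of all 18397 genes were lower. There were 7 at an adjusted p under 0.05 (308 of all genes lower) and 3 with DESeq2 (137). With reads outside genes as a covariate there was 1 (52), and without the late hatching male on multiple lanes 1 (72). With marker levels as covariates there were 0 (0 of all genes called). Without the 4 libraries of high photoreceptor markers there was 1 (14), and without single libraries 1 to 2 (19 to 84). In the fits with reads outside genes and without the late male, the gene lost was ENSGACG00000006984, whose fold change was -3.16 and -3.13 (edgeR adjusted p = 0.0118 and 0.0113), against -3.17. At eggs, 0 became 1 at an adjusted p under 0.05 (3 of 18397 genes lower), with DESeq2 (18) and with the likelihood ratio test (7). At early hatching 0 became 1 with DESeq2 (25). No paired analysis of stage against control was possible because each stage and its control group hold different males. Between regions, 70 of the 99 genes were called, where 5412 of 18958 genes were lower and 5686 higher in diencephalon. With the male as replicate block 77 were called (56 lower, 21 higher), where 5634 of 18957 genes were lower and 6909 higher. Without single males 67 to 72 were called, where 5093 to 5411 genes were lower and 5528 to 5995 higher. The median telencephalon difference of -0.21 was -0.22 with log2(CPM + 0.1). It was -0.21 without the 3 or the 4 libraries of high markers, alternatives chosen after seeing the data. In the mean of the 5 stages, 46 of the 99 were lower at an unadjusted p under 0.05. Without the 3 libraries 37 were (1603 of 18304 genes), and 35 without the 4 (1280 of 18290). With marker covariates 38 were (1076 of 18397). The fold change was below 0 for 94 of the 99, and for 86 without the 3 (8623 of 18304). It was below 0 for 94 without the 4 (9220 of 18290) and 90 with marker covariates (8711 of 18397). Of 985 single-gene values under an alternative, 942 kept direction and side of the threshold, 34 no longer passed, 6 newly passed and 3 turned. Many were of genes not called in the main fit, so the 942 say little about the 2 genes called. ENSGACG00000006984 passed 0.01 in 10 of 40 fits without 1 library. It turned to 0.0262 with marker covariates. The other 2 that turned were of snx5 (ENSGACG00000004673), to 0.0214 without the 3 libraries of high pituitary markers and to 0.000443 without 1 control male of 9am. Over fits without single libraries snx5 lay between -0.173 and 0.000443. The cause of these changes was not tested. Counts below about 0.5 CPM rest on few reads, which limits ENSGACG00000006984 in telencephalon.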
